A study of Mus musculus with 4 samples.

Results

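The promoters of 43 genes of skeletal and cardiac muscle were taken from the deposited promoter table by gene symbol, and all 43 had a row among the 26354 rows of the table. Of these, 27 are counted as genes of skeletal muscle, 15 as genes of the heart and Ttn (titin) as both. Slow skeletal muscle also uses 7 of the 15 genes of the heart. The list was made by name, as muscle genes that are held to be silent or low in smooth muscle, and expression was not measured here. The libraries come from the medial layer of aortas of male C57Bl/6J mice, fixed directly after dissection, with the adventitial and endothelial layers removed by hand. In each of 2 independent experiments, numbered v102 and v134, chromatin precipitated with an antibody to dimethylated lysine 9 of histone H3 (H3K9me2) was sequenced beside its input, which is the same kind of chromatin without precipitation. All libraries share the strain, the sex and the tissue, and the ages of the animals and the number pooled are not in the labels.

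Vascular smooth muscle and striated muscle (skeletal and cardiac) both contract by sliding of actin and myosin, but they build the machinery largely from different members of the same gene families. Striated muscle uses sarcomeres with troponin, titin and nebulin, and its genes are switched on by the myogenic factors in skeletal muscle and by other factors, among them MEF2 proteins, in both tissues. H3K9me2 is a histone mark written mainly by the methyltransferases EHMT2 and EHMT1 and is known for its presence at repressed genes.

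The sequences below are the promoters of 3 members that were above and 3 that were below input by the test described further on, shown so that their base composition can be compared. Each runs 5′ to 3′ from 250 bases before to 50 bases after the gene's start in RefSeq on GRCm38.p6, and capitals mark E-boxes (CANNTG, the motif bound by myogenic factors) and, as runs of 10 letters, matches to the MEF2 motif.
Tnnc2 (chr2:164779685-164779984, minus strand): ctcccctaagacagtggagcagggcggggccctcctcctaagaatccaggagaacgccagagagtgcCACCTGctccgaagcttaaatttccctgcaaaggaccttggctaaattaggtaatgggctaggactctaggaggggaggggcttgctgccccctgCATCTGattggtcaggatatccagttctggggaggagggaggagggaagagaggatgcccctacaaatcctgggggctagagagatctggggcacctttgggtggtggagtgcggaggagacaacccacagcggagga
Myoz2 (chr3:123034938-123035237, minus strand): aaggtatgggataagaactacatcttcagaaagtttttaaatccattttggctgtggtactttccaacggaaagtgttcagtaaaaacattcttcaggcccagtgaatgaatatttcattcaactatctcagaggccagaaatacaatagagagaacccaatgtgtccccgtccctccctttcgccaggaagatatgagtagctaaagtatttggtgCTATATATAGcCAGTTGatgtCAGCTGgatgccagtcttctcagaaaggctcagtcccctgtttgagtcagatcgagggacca
Actn2 (chr13:12340683-12340982, minus strand): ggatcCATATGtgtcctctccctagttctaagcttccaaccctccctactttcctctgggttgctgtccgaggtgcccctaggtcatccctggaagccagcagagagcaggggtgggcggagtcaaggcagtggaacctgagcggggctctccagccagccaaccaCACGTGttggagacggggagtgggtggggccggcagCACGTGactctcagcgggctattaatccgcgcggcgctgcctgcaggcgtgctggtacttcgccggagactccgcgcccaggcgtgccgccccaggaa
Casq2 (chr3:102086165-102086464, plus strand): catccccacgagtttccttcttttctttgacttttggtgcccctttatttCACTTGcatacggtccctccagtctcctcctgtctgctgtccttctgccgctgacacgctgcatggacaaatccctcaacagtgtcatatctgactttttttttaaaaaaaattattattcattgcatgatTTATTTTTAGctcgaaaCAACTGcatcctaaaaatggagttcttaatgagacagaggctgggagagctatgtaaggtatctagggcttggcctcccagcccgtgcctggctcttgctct
Ryr2 (chr13:12106896-12107195, minus strand): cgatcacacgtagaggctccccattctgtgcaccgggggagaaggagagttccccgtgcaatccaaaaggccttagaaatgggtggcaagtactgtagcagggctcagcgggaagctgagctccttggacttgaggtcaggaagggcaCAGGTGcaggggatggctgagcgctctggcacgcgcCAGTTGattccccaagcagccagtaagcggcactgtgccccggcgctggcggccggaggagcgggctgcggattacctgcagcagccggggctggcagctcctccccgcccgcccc
Myl4 (chr11:104550413-104550712, plus strand): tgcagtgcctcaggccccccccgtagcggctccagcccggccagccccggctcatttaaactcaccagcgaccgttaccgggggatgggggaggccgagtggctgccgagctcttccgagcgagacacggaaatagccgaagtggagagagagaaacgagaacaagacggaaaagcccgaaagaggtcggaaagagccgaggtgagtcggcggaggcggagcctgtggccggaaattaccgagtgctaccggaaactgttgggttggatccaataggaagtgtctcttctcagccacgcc
The Tnnc2, Myoz2 and Casq2 stretches hold 5, 4 and 6 CpG dinucleotides, whereas those of Actn2, Ryr2 and Myl4 hold 19, 18 and 25. Tnnc2, Myoz2, Casq2 and Ryr2 have 2 E-boxes each, Actn2 has 3 and Myl4 has none. A MEF2 match is present in Myoz2, which was above input, and in Casq2, which was below it. Thus by that test both directions occur with few and with many CpG, and with and without a MEF2 match. With the experiment number as a block, as given below, none of the calls below input was made. The start of Myl4 is also close to that of Cdc27. A match is a description of the letters and not a bound site.

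Of the 43 members, 36 have an entry in the RefSeq promoter table, and 29 of these have a RefSeq start within 1000 bases of the GENCODE start used for the composition of the windows below. The start of the other 7 (Ckm, Myh13, Myl2, Myl3, Mylpf, Tnni1 and Tnni3) differs more, and which start the authors counted around is not known. Over the 36 entries, an E-box was present in 83.3%, compared with 72.3% of all 32851 entries of the same length. The letters TATAAA were present in 33.3% of the members and 13.6% of all entries. The MEF2 motif was found in 22.2% of the members against 3.19%, and the CArG box, the motif of serum response factor, in 16.7% against 1.63%. Both strands were searched, and matches of different motifs can overlap. The difference between these shares was not tested.

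Reads were counted by the authors in a window that reaches 1 kb to each side of the start site, and they gave the ratio of summed H3K9me2 to summed input reads. The H3K9me2 libraries hold 162233 and 229605 reads over the promoters of the table (v102 and v134), and the input libraries hold 619100 and 1084349. A ratio below 1 therefore reflects the smaller H3K9me2 libraries, and the median over all rows was 0.162. At the members there were 1 to 20 H3K9me2 reads in v102 and 0 to 25 in v134, against 8 to 35 and 21 to 71 input reads. At this depth a ratio of a single promoter is imprecise, and the 95% Wilson intervals given with ratios hold counting error alone, as these reads carry no molecular identifiers and several can stem from 1 molecule. The medial layer is a bulk tissue, so a mark present in fewer cells and a lower level in each cell cannot be told apart.

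H3K9me2 at striated muscle promoters was near the middle of all promoters. The median ratio was 0.179 over the 43 members, 0.167 over the skeletal and 0.179 over the cardiac members, compared with 0.162 over all other rows. The ratios ran from 0.0364 at Casq2 (calsequestrin 2, which stores calcium in the cardiac sarcoplasmic reticulum) to 0.672 at Neb (nebulin, the giant protein along the thin filaments of skeletal muscle). The interval of 29 members includes the median of all rows, that of 11 lies above it and that of 3 (Casq2, Ryr2 and Myl4) lies below it. The same count was not made over all rows, so these numbers do not show an excess on either side.

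For ranking, 1 read was added to each count, counts were divided by the promoter total of their library, and the log2 ratio of H3K9me2 to input was averaged over both experiments and given as a percentile among all rows. The skeletal members had a median percentile of 57.2 and the cardiac members of 55.7, where all rows have 50.0. The experiments did not give the same position. The skeletal median was at percentile 59.6 in v102 and 49.0 in v134, and the cardiac median at 63.1 and 39.7. Of the 15 cardiac members 14 (93.3%) had the higher log2 ratio in v102, compared with 19 of 27 skeletal members and 60.2% of all rows, and the cause was not tested.

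**Figure D1:**
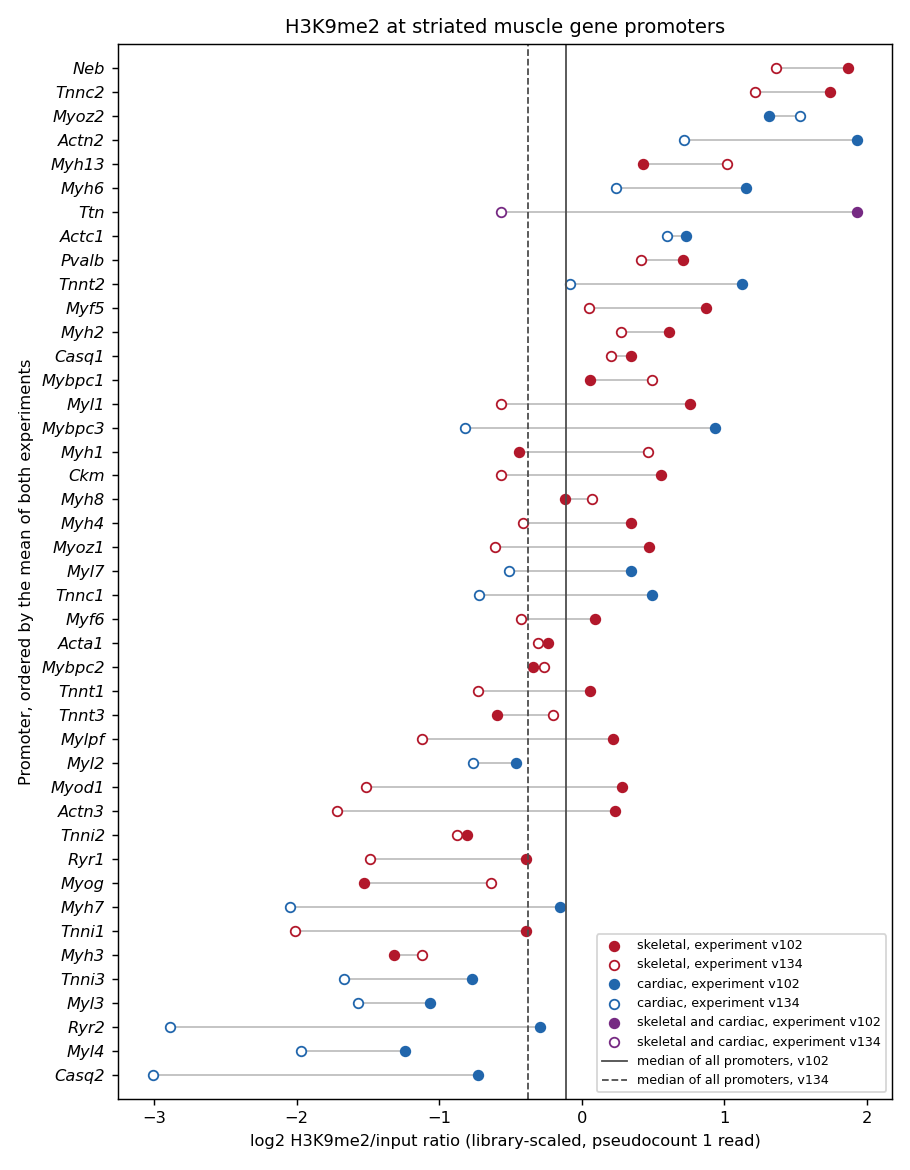
Log2 H3K9me2/input ratio (x axis, scaled by library totals, pseudocount 1 read) of each of the 43 promoters (y axis, ordered by the mean of both experiments), with filled points for experiment v102, open points for v134, and vertical lines for the medians of all promoters. Neb, Tnnc2, Myoz2 and Actn2 have the highest means, and 34 of the 43 members have the higher value in v102.

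By the deposited ratio, 7 of the 43 members (16.3%) were at or above the 75th percentile of all rows, which holds 25% of the promoters. These were Neb, Myoz2, Tnnc2, Actn2, Myh13, Myh6 and Ttn. Just inside the limit of 0.343 was Ttn with a ratio of 0.348, and just outside it was Actc1 with 0.338, so that these members are not separated by more than counting error. By this ratio the share of the members in the upper quartile is below the background share. Once its trend with GC content was removed the number was 12 of 43, a share above 25%, as given with the composition of the windows below. With at least 20 reads in each input it was 6 of 24 members. The position relative to the background share therefore depended on the setting.

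H3K9me2 and input reads were compared by edgeR's quasi-likelihood test over all rows. Above input means a log2 fold change over 0 after TMM scaling, and below input means one under 0. The median of all rows, given below, was itself under 0. At an adjusted p of 0.05 (Benjamini-Hochberg), 4 of the 43 members were above input, where 18.6% of all rows were, and 4 were below input, where 17.0% were. The other 35 members passed in neither direction. Both shares of the members (9.30%) are lower than the background. The skeletal members included 2 above and 0 below input, with 2 below at an unadjusted p of 0.05 (24.8% of all rows). DESeq2 called 0 of them below, but left the adjusted p of 17 of the 27 undefined. The cardiac members included 2 above and 4 below. Their 7 genes shared with slow skeletal muscle held 2 above and 2 below, so the split depends on where these are counted. The difference between skeletal and cardiac members was not tested. The median log2 fold change was -0.21 over the members and -0.35 over all rows.

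The calls above input kept to the same 4 genes with the experiment number as a block (15.8% of all rows above) and with library totals in place of TMM (16.3% above). The calls below input depended on the fit. With the block none of the members was below (8.30% of all rows), although 3 were at an unadjusted p of 0.05 (19.5% of all rows). None of the 4 calls was made without the H3K9me2 library of v134, where 8.83% of all rows were below, or without the input library of v102 or v134, where 1.88% and 1.95% were. The fold changes moved less than the calls without an input library, with log2 values of -2.47 and -2.32 at Casq2 and -2.36 and -1.86 at Ryr2 (v102 and v134 left out), but without the H3K9me2 library of v134 they were -1.23 at Casq2 and -1.0 at Ryr2. DESeq2 called 0 of the 14 members with a defined adjusted p below input, and also only 0.323% of all rows with one, so this count says nothing about the members. With library totals 5 members were below (21.5% of all rows). Windows of 6 members (Myl4, Actn3, Actc1, Mylpf, Ckm and Myh1) overlap that of another row and share its reads. These tests compare 2 libraries with 2, and edgeR shares information on the spread over all rows. The SE of a promoter therefore need not follow its own spread between the experiments. Actn2 and Myoz2 had an SD of 0.86 and 0.16 between experiments, but an SE of 0.42 and 0.43.

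**Figure D2:**
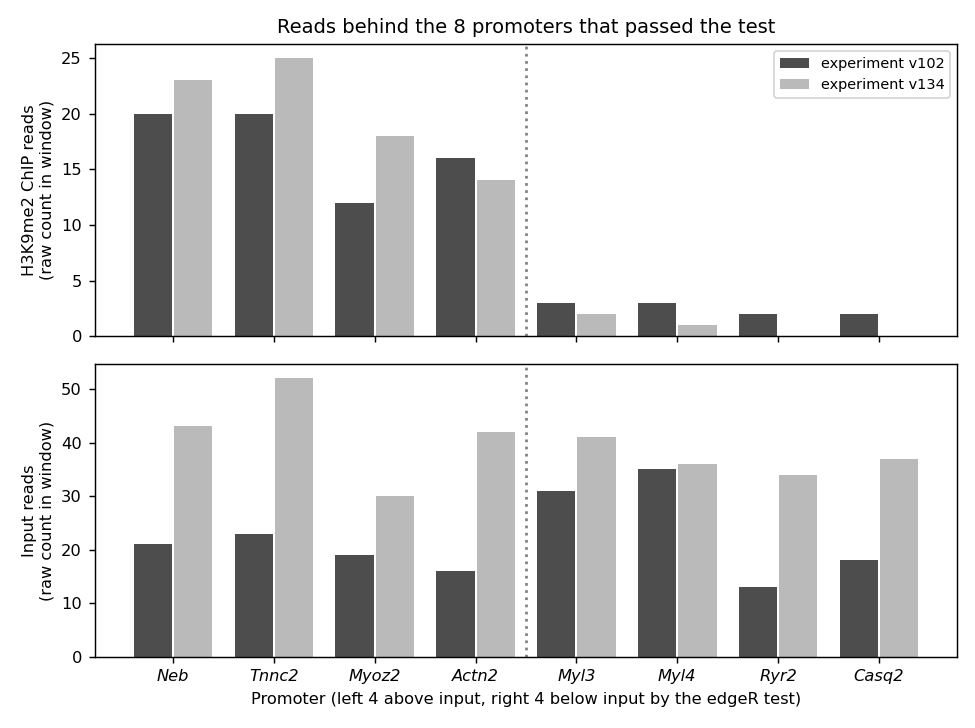
Raw read counts (y axes) in the H3K9me2 libraries (upper panel) and input libraries (lower panel) of experiments v102 and v134, for the 8 promoters that passed edgeR's quasi-likelihood test. The 4 promoters on the left had 12 to 25 H3K9me2 reads in every library, and the 4 on the right had 0 to 3, with overlapping numbers of input reads.

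The giant and accessory proteins of the sarcomere held 2 of the 4 promoters above input. These were 2 of 7 promoters (28.6%), where 18.6% of all rows were above, and the difference was not tested. The median percentile of the 7 was 66.0, with 76.4 in v102 and 53.0 in v134. Neb (chr2:52136647-52378474, minus strand, GENCODE positions on GRCm38) had 20 and 23 H3K9me2 reads in v102 and v134, against 21 and 43 input reads. Its H3K9me2 reads nearly equalled its input reads in v102, although the H3K9me2 library is the smaller. The ratio was 0.672 (0.458 to 0.987), the log2 ratio was 1.62 ± 0.35 (SD, n = 2), and the log2 fold change over input was 1.70 (SE 0.38, adjusted p = 0.000107 by edgeR's quasi-likelihood test). Neb was called in all 11 settings in which it could be tested.

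Myoz2 (chr3:123006206-123035015, minus strand) encodes myozenin 2, a Z-disc protein of heart and slow skeletal muscle. It had 12 and 18 H3K9me2 reads against 19 and 30 input reads. Both experiments were high, with a log2 ratio of 1.42 ± 0.16 (SD, n = 2) and a deposited ratio of 0.612 (0.390 to 0.961). The log2 fold change was 1.54 (SE 0.43, adjusted p = 0.00226 by edgeR's quasi-likelihood test), and it was lost without the input library of v134 (lowest log2 fold change 1.39). Myoz1, the related Z-disc gene of fast skeletal muscle, had 3 and 4 H3K9me2 reads against 10 and 35 and a ratio of 0.156 (0.0715 to 0.338), and its interval does not overlap that of Myoz2.

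Ttn, the molecular spring of the sarcomere, differed most between the experiments among the giant proteins. It had 12 H3K9me2 reads against 12 input reads in v102, but 4 against 34 in v134. Its log2 fold change of 0.77 (SE 0.52, adjusted p = 0.232 by edgeR's quasi-likelihood test) did not pass, and it passed when the H3K9me2 library of v134 was left out. The myosin binding proteins C, which cross-link the thick filaments, had ratios of 0.261 (Mybpc1), 0.164 (Mybpc2) and 0.256 (Mybpc3), and none passed the test. Mybpc2, the lowest of this role by mean log2 ratio, had 5 and 5 H3K9me2 reads against 28 and 33 input reads.

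Among the troponins, which place calcium control on the thin filament, 1 of 8 promoters (12.5%) was above input and 0 below. Over all rows 18.6% were above and 17.0% below. Tnnc2 (fast skeletal troponin C, chr2:164777161-164779967, minus strand) had 20 and 25 H3K9me2 reads against 23 and 52 input reads. The ratio was 0.600 (0.415 to 0.866) with a log2 ratio of 1.48 ± 0.37 (SD, n = 2). The log2 fold change was 1.55 (SE 0.37, adjusted p = 0.000317 by edgeR's quasi-likelihood test), and it was called in all 11 settings.

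Tnnc1, the troponin C gene of heart and slow skeletal muscle, had 6 and 4 H3K9me2 reads against 18 and 38 and a ratio of 0.179 (0.0922 to 0.346), so its interval and that of Tnnc2 do not overlap. The other troponins did not pass in either direction. Their ratios were 0.277 at Tnnt2 and 0.149 and 0.153 at Tnnt1 and Tnnt3 (the tropomyosin-binding subunits of heart, slow and fast muscle), and 0.0714, 0.0909 and 0.0488 at Tnni1, Tnni2 and Tnni3 (the inhibitory subunits of slow muscle, fast muscle and heart). All 3 inhibitory subunits were lower than every tropomyosin-binding subunit, but their intervals overlap. Tnni3 was the lowest of the role with 1 and 1 H3K9me2 reads against 12 and 29 input reads.

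The promoters of the actins and actinins had a median percentile of 63.1 over 4 genes. Actn2 (chr13:12269426-12340760, minus strand), the alpha-actinin of the Z-disc in heart and skeletal muscle, had 16 and 14 H3K9me2 reads against 16 and 42 input reads. The value was higher in v102 than in v134, and the log2 ratio was 1.33 ± 0.86 (SD, n = 2). The log2 fold change was 1.34 (SE 0.42, adjusted p = 0.00699 by edgeR's quasi-likelihood test). Actn2 was called in 7 of 10 settings and was lost without the H3K9me2 library of v102, where its log2 fold change was 1.11, without the input library of v102, and by DESeq2 (adjusted p = 0.0702).

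Actn3, the alpha-actinin of fast skeletal fibres, was the lowest of the role with 7 and 1 H3K9me2 reads against 25 and 30 input reads. Its reads came mostly from v102, and its window overlaps that of Zdhhc24, so the genes share reads. The sarcomeric actins did not pass the test, with ratios of 0.157 at Acta1 (skeletal) and 0.338 at Actc1 (cardiac). The H3K9me2 reads at Actc1 were 9 and 15, against 22 and 49 input reads, and its window overlaps that of C130080G10Rik.

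Of the 8 myosin heavy chain promoters, which supply the motor of the thick filament, none passed the test in either direction, and their median percentile was 58.9. At an unadjusted p of 0.05, 1 was above and 1 below, where 21.4% and 24.8% of all rows were. DESeq2 called 0, but left the adjusted p of 3 of the 8 undefined. The highest was Myh13 (the extraocular myosin) with 5 and 17 H3K9me2 reads against 16 and 41 input reads, a ratio of 0.386 (0.237 to 0.628) and an adjusted p of 0.107 by edgeR's quasi-likelihood test. The lowest was Myh3 (embryonic myosin) with 1 and 3 against 18 and 40, and a ratio of 0.0690 (0.0260 to 0.183). The intervals of Myh3 and Myh13 do not overlap.

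These genes lie in 1 cluster on chromosome 11 with Myh2 and Myh1 (fast adult myosins), Myh4 (the fastest) and Myh8 (perinatal), over 243 kb. From Myh3 onward the ratios in order were 0.0690, 0.281 (Myh2), 0.229 (Myh1), 0.190 (Myh4), 0.208 (Myh8) and 0.386 (Myh13), so the ends of the cluster held the lowest and the highest values. The position of Myh13 rested on v134, since without that H3K9me2 library its log2 fold change was 0.04 in place of 0.89, and in v102 the log2 ratio of Myh2 (0.61) was above that of Myh13 (0.43). The 4 genes between them overlap in their intervals. Myh6 and Myh7, the alpha and beta myosins of the heart, start 27.7 kb apart on chromosome 14. Myh6 had 13 and 8 H3K9me2 reads against 23 and 35 input reads, and Myh7 had 3 and 1 against 16 and 38. The ratio of Myh6 was 0.362 (0.221 to 0.593) and that of Myh7 was 0.0741 (0.0279 to 0.197), without overlap of the intervals, although neither promoter passed edgeR's test. The difference between them was not tested in the replicates.

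**Figure D3:**
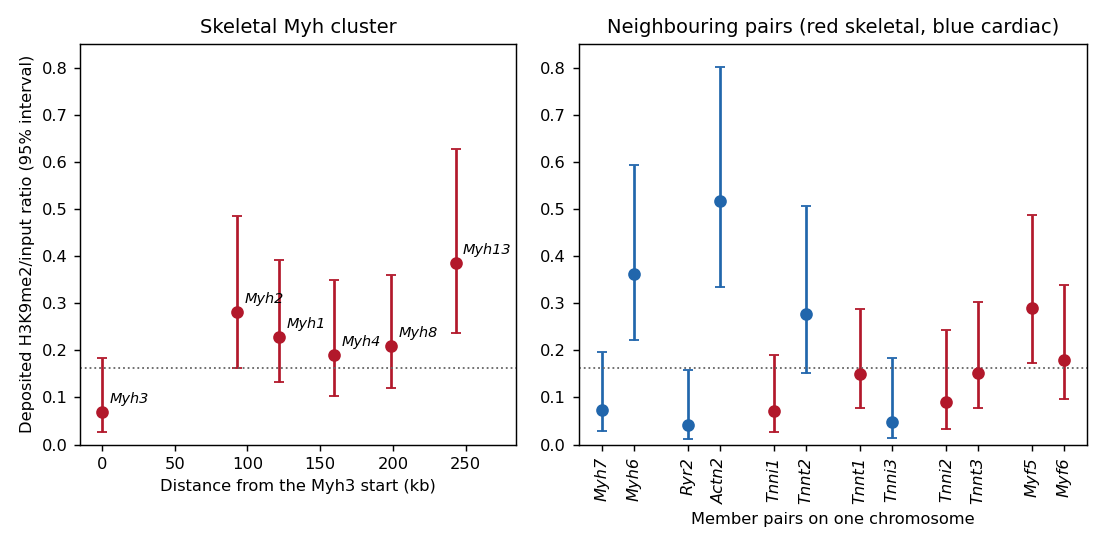
Deposited H3K9me2/input ratio (y axes, points) with 95% Wilson intervals (bars, counting error only). Shown are the 6 myosin heavy chain promoters of chromosome 11 by distance from the start of Myh3 (left). Pairs of members on the same chromosome, 7.85 to 234 kb apart, are on the right, and other genes can lie between them. The dotted line is the median of all promoters, 0.162. The intervals of Myh6 and Myh7, and of Actn2 and Ryr2, do not overlap.

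The myosin light chains, which stiffen and tune the myosin neck, had 2 of 6 promoters below input (17.0% of all rows) and none above (18.6%). With the block 0 of the 6 were below (8.30% of all rows), although 2 were at an unadjusted p of 0.05 (19.5%). The median percentile of the light chains was 43.7. Myl4 (chr11:104550663-104595753, plus strand), the atrial and embryonic essential light chain, had 3 and 1 H3K9me2 reads against 35 and 36 input reads. It was low in both experiments, with a log2 ratio of -1.60 ± 0.52 (SD, n = 2). The log2 fold change was -1.90 (SE 0.70, adjusted p = 0.0235 by edgeR's quasi-likelihood test, and 0.0512 with the block). The annotated start of Myl4 is 43 bases from that of Cdc27, a cell cycle gene, and both rows hold the same counts, so these reads belong to both genes.

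Myl3 (chr9:110741861-110769798, plus strand), the ventricular and slow skeletal essential light chain, had 3 and 2 H3K9me2 reads against 31 and 41 input reads and a ratio of 0.0694 (0.0289 to 0.167). Its log2 fold change was -1.59 (SE 0.66, adjusted p = 0.0456 by edgeR's quasi-likelihood test, and 0.0793 with the block), and it passed in 2 of 10 settings. The RefSeq start of Myl3 lies 21817 bases from the GENCODE start. The remaining light chains did not pass, with ratios of 0.118 at Myl2, 0.151 at Mylpf, 0.167 at Myl1 and 0.182 at Myl7. Myl1, the fast skeletal essential light chain and the highest of the role by mean log2 ratio, had 3 and 4 H3K9me2 reads against 8 and 34 input reads.

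The genes of calcium handling and energy supply included the lowest member. Casq2 (chr3:102086415-102146514, plus strand) had 2 and 0 H3K9me2 reads against 18 and 37 input reads, and a ratio of 0.0364 (0.00977 to 0.135). Ryr2, the calcium release channel of the heart (chr13:11553102-12106945, minus strand), also had 2 and 0 H3K9me2 reads, against 13 and 34 input reads, and a ratio of 0.0426 (0.0114 to 0.159). The 0 of v134 at both promoters allows up to 3 reads at this depth.

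The log2 fold change was -2.45 at Casq2 (SE 0.90, adjusted p = 0.0233 by edgeR's quasi-likelihood test, and 0.0816 with the block). At Ryr2 it was -2.22 (SE 0.93, adjusted p = 0.0477 by edgeR's quasi-likelihood test, and 0.129 with the block). Casq2 passed in 5 and Ryr2 in 3 of 9 settings, and both were lost without the H3K9me2 library of v134. Ryr2 lies 234 kb from Actn2 on chromosome 13, which was above input, and the start of Mtr lies between them. The intervals of Ryr2 and Actn2 do not overlap.

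Their skeletal counterparts did not pass. Casq1 had 6 and 10 H3K9me2 reads against 20 and 44 (ratio 0.250, 0.146 to 0.430), and its interval does not overlap that of Casq2. Ryr1, the release channel of skeletal muscle, had 4 and 3 against 24 and 52 (ratio 0.0921, 0.0432 to 0.196), which overlaps that of Ryr2. Pvalb (parvalbumin, the calcium buffer of fast fibres) was the highest of the role with 8 and 12 against 20 and 45, and Ckm (muscle creatine kinase) had a ratio of 0.220.

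None of the 4 myogenic regulatory factors, the transcription factors that commit cells to skeletal muscle, passed in either direction by edgeR's quasi-likelihood test. At an unadjusted p of 0.05 the number was also 0. DESeq2 called 0, but left the adjusted p of 3 of the 4 undefined. Myf5 was the highest with 10 and 8 H3K9me2 reads against 22 and 40 input reads (ratio 0.290, 0.173 to 0.488), and its interval lies above the median of all rows. Myf6 had 6 and 5 against 24 and 37 (ratio 0.180). Myod1 had 6 and 1 against 21 and 26 (ratio 0.149), so its reads were mostly those of v102.

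Myog (myogenin, which acts in differentiation) had 1 and 2 against 21 and 21 and a ratio of 0.0714 (0.0235 to 0.217). The intervals of all 4 overlap, so their order is not resolved by these reads. Myf5 and Myf6 start 8.60 kb apart on chromosome 10. Their log2 ratios were 0.46 ± 0.58 and -0.16 ± 0.37 (SD, n = 2).

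Promoters around the members above input were examined as well. Of the neighbours within 100 kb, 3 lie near Neb, 15 near Tnnc2, 1 near Myoz2 and 2 near Actn2, and edgeR called 0 of these 21 above input and 10 below it, where 18.6% and 17.0% of all rows were. The windows of 10 of the 21 overlap that of another neighbour, so these are not 21 separate measurements. The promoters nearest to the 4 genes had ratios of 0.325 (Gm13522, 11.4 kb from Neb), 0.0328 (Snx21, 5.86 kb from Tnnc2), 0.0408 (Usp53, 50.5 kb from Myoz2) and 0 (Heatr1, 54.3 kb from Actn2). Heatr1 had 0 H3K9me2 reads against 52 input reads, which allows a ratio of up to 0.0577 at a count of 3. Of the members below input, Myl4 had 4 neighbours within 100 kb, with 1 above and 1 below input. Myl3 had 7, with 0 above and 1 below, and Casq2 had 1, which was not called. The promoter above input near Myl4 was Gm11665 at 7.11 kb, with a ratio of 0.632 (adjusted p = 0.000599 by edgeR's quasi-likelihood test). The 1 below near Myl4 was Cdc27, which holds the same counts as Myl4.

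To compare with the contractile genes that smooth muscle does use, a list of 20 smooth muscle contractile genes was taken. It had 1 promoter above (5%) and 11 below input (55%), where 18.6% and 17.0% of all rows were. With the block 4 were below (8.30% of all rows). The list had a median ratio of 0.0558 and a median percentile of 13.1, compared with 56.8 over the 43 striated members. A difference between the lists was not tested. The lowest were Myh11, the smooth muscle myosin heavy chain, with 0 and 0 H3K9me2 reads against 19 and 41 input reads (a ratio of up to 0.05 at a count of 3), and Itga8 (an integrin) with 0 and 1 against 22 and 41. The highest were Smtn (smoothelin) with 15 and 34 against 22 and 58 (ratio 0.613) and Des (desmin, which striated muscle also uses) with 5 and 9 against 14 and 31 (ratio 0.311).

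Set beside members of the same family, Acta2 (smooth muscle actin) had a ratio of 0.0833 (0.0313 to 0.222), which overlaps the intervals of Acta1 (0.0757 to 0.325) and Actc1 (0.214 to 0.535). The interval of Myh11 reaches 0.0640 and overlaps those of Myh3 and Myh7, and it lies below those of the other 6 striated myosins. The other defining smooth muscle genes Tagln and Cnn1 had ratios of 0.0820 and 0.0725. The 16 relatives of the members listed as non-muscle genes, such as the cytoplasmic actins and non-muscle myosins, had a median percentile of 12.6. The highest of them were Myh14 and Ryr3, at percentiles 70.9 and 64.9. These 16 relatives had 0 above input (18.6% of all rows), and 0 also at an unadjusted p of 0.05 (21.4%). They had 9 below input (17.0% of all rows) and 3 with the block (8.30%). DESeq2 called 0 of them above, but left the adjusted p of 15 of the 16 undefined.

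A further 48 striated muscle genes that are no members had a median percentile of 50.3 and a median ratio of 0.169. Of these 6 were above and 6 below input (12.5% each), where 18.6% and 17.0% of all rows were. By mean log2 ratio their highest promoters were Nppb (brain natriuretic peptide, deposited ratio 0.720) and Cacng1 (a calcium channel subunit of skeletal muscle, 0.515), and their lowest Cox7a1 (a muscle subunit of cytochrome oxidase, 0.0110) and Jph2 (junctophilin 2 of the heart, 0.0260). As among the 43 members, the shares above and below input were both lower than those of all rows. The study used Actb, a housekeeping gene, as negative and Magea2, a germline gene, as positive control locus of its ChIP. Actb had a ratio of 0.0119 and Magea2 of 0.455 (0.219 to 0.944). With 3 and 7 H3K9me2 reads against 6 and 16 input reads, Magea2 did not pass (adjusted p = 0.170 by edgeR's quasi-likelihood test). At this depth a promoter that did not pass is therefore not shown to lack the mark.

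**Figure D4:**
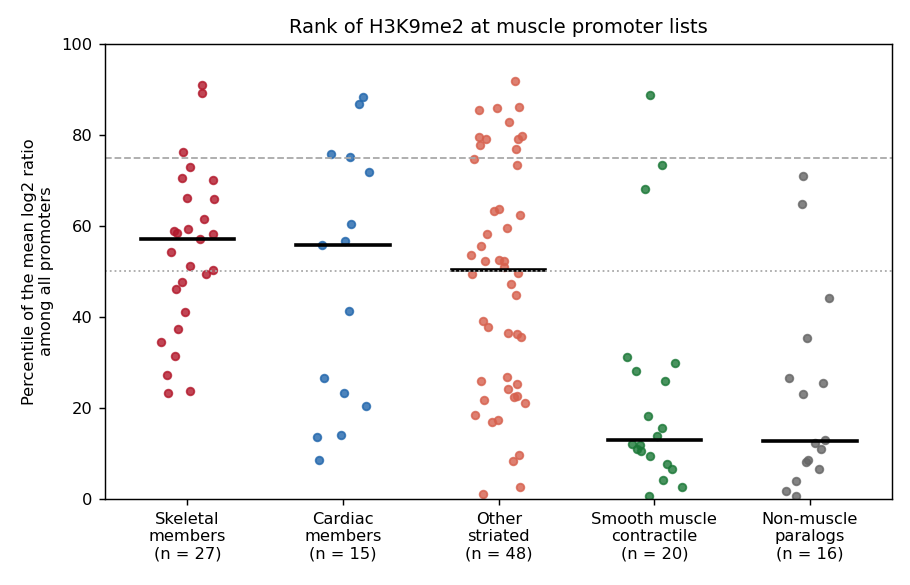
Percentile of the mean log2 H3K9me2/input ratio among all promoters (y axis) for each promoter (points) of the skeletal and cardiac members, other striated muscle genes, smooth muscle contractile genes and their non-muscle relatives, with the median of each list (bars) and lines at the 50th and 75th percentiles. The skeletal and cardiac medians are 57.2 and 55.7, against 13.1 for the smooth muscle contractile genes.

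Other cells of the vessel wall could carry their own pattern of the mark. Of 8 endothelial genes 2 were above and 1 below input, of 6 fibroblast genes 2 were below, and of 8 leukocyte genes 2 were above. Over all rows 18.6% were above and 17.0% below, and counts from lists this small do not set these genes apart. The median percentiles were 64.8, 43.7 and 59.2. These lists measure a mark and not the number of cells, and their part in the values of the members was not tested.

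The members' windows of 2 kb were poor in CpG. The CpG observed/expected ratio was 0.279 in the median member and 0.440 in the median of the 22299 rows with a sequence, and 36 of 43 members (83.7%) were under 0.4, compared with 46.7% of those rows. Among rows under 0.4, 31.3% were above input and 7.68% below, and their median ratio was 0.267. The 36 members under 0.4 had 3 promoters above (8.33%) and 1 below (2.78%), and a median ratio of 0.181. Thus the median ratio of the members under 0.4 was lower than that of promoters of the same CpG class. In the class of 0.4 or more it was higher, with 0.149 over 7 members and 0.104 over all rows of the class. These differences were not tested.

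The 7 members with a CpG ratio of 0.4 or more had 1 above (Actn2) and 3 below (Myl3, Myl4 and Ryr2), where 5.50% and 26.2% of all rows of that class were. Thus by the GENCODE starts 3 of the 4 members below input were in the CpG-richer class, in which calls below input were also more frequent over all rows. The RefSeq starts of Myl3, Ckm and Mylpf of this class lie 21817, 6318 and 2718 bases away, so the class of their counted windows is not certain. The RefSeq promoter of Myl3 holds 1 CpG. GC content, in contrast, was close to that of all rows, with a median of 52.7% over the members (36.1% to 61.4%) and 50.9% over all rows. Across the 43 members the log2 ratio had a Spearman rho of -0.43 with GC content and -0.16 with the CpG ratio, where across all rows with a sequence these were -0.55 and -0.52. These describe promoters of the same libraries, which are not independent replicates.

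Removing the trend with GC content placed 12 members in the upper quartile in place of 7, and the skeletal and cardiac medians at percentiles 55.1 and 62.5. Removing the trend with the CpG ratio instead placed them at 50.7 and 25.9. The position of the cardiac promoters therefore depended on which property of the sequence was held constant.

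**Figure D5:**
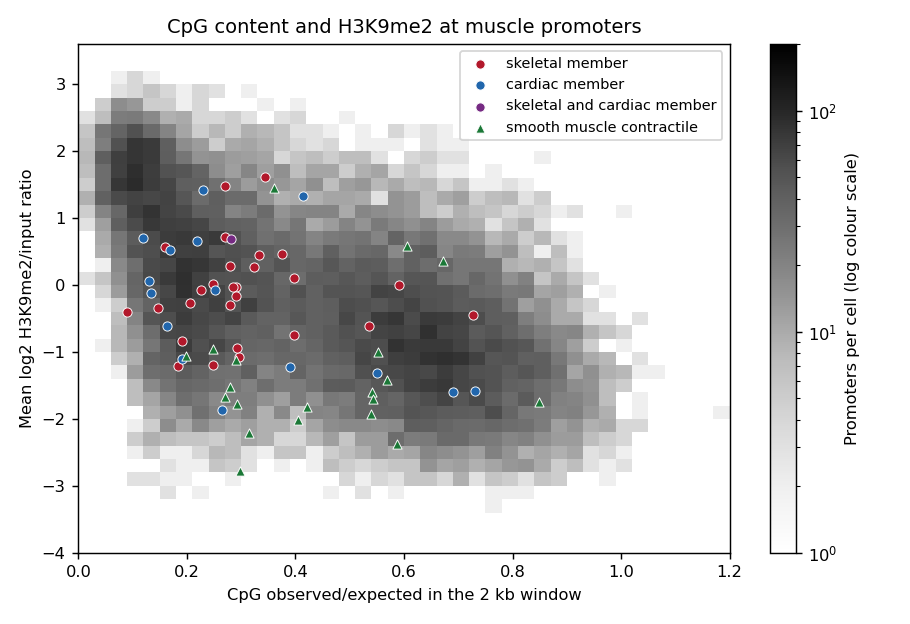
CpG observed/expected ratio in the window of 2 kb (x axis) against the mean log2 H3K9me2/input ratio (y axis) for the members (circles) and the smooth muscle contractile genes (triangles), over the density of all promoters (grey, log colour scale). Of the 43 members 36 lie under a CpG ratio of 0.4, where the median ratio of all promoters is 0.267 and that of the members is 0.181.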

How the data were processed

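The authors trimmed reads with Cutadapt 1.9.1 through Trim Galore 0.4.2, aligned them to GRCm38 with Bowtie2 2.2.7 (versions per the submitters' processing notes) and counted reads within 1 kb of each start site with SeqMonk. Which annotation release was used, and whether duplicates were removed, was not given in the sources used here. The deposited table holds raw counts for 4 libraries, their sums and the ratio of summed H3K9me2 to summed input reads, which is not scaled for library size; 0 columns of per-sample values were left unmapped. Positions, GC content and CpG content came from GENCODE and RefSeq annotation of GRCm38, in which 22329 symbols matched 1 gene, and the authors' start sites may differ.

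The counts of all 26354 rows were fitted in R 4.3.3 without a further filter. The main test was the quasi-likelihood test of edgeR 4.0.16 on TMM-scaled libraries, with p-values adjusted after Benjamini-Hochberg over all rows at 0.05, and DESeq2 1.42.0 was the alternative. The standard error is the log2 fold change divided by the square root of F. Trends with GC and CpG content were removed by lowess (fraction 0.3; statsmodels 0.14.6, scipy 1.17.1, numpy 2.4.6, pandas 2.3.3, Python 3.11.15, matplotlib 3.10.9). According to the study's methods every ChIP had an input of its own, so that libraries of one experiment number are paired, and their deviations from the group means correlated at 0.104 over the rows. The members and lists were chosen with earlier results of these data known. Described in full were the highest and lowest member of each role, all members that passed the test and the 4 myogenic factors; neighbouring promoters were named after their values were seen.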

Additional observations from a re-analysis of the deposited data

How the results depend on the processing

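The count of members above input (4) stayed within 3 to 4 under library totals, the replicate block, at least 20 reads in each input, at least 40 summed input reads, autosomes alone, DESeq2 and the omission of members with overlapping windows (chosen after seeing the data), and ranged from 3 to 6 without 1 library. The 6 without the H3K9me2 library of v134 (14.0% of the members) exceed the share of all rows there (12.9%), and the 3 without an input library (6.98%) do not (11.5% and 11.7%). DESeq2 called 33.7% of the rows with a defined adjusted p above input and 21.4% of such members. The genes were not the same in each: with at least 20 reads in each input 24 members remained, and Myh6 passed with Neb and Tnnc2. The count below input (4) was 0 with the replicate block, 0 with at least 20 reads in each input, 0 by DESeq2, 2 with at least 40 summed input reads and 2 on autosomes alone (Casq2 and Myl4). It ranged from 0 to 6 without 1 library, with 0 without the H3K9me2 library of v134, the input library of v102 or that of v134, and 6 without the H3K9me2 library of v102, while 8.83%, 1.88%, 1.95% and 15.2% of all rows were below in these fits. The omission of 1 library leaves a lone library that is assumed to vary like the others. The median percentile of the skeletal promoters (57.2) ranged from 49.0 to 59.6 without 1 experiment and that of the cardiac promoters (55.7) from 39.7 to 63.1. The cardiac median was 25.9 with the CpG trend removed (chosen after seeing the data). The number in the top quartile (7) was 12 with the GC trend removed and 5 to 9 without 1 experiment. The cause was not tested. Library totals moved the median log2 fold change of all rows from -0.35 to -0.50. The calls are made against a log2 fold change of 0 and not against that median. In the paired fit with the replicate block no call above input among the members changed. The median promoter had 4 and 5 H3K9me2 reads, which limits the precision of single promoters.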
